A study of Mus musculus with 10 samples.

Results

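The nuclear-encoded subunits of respiratory complex I were followed in mouse hearts as 36 genes, out of 11790 in the deposited expression table. They were chosen by name: every row whose symbol is Nduf, then a, b, c, s or v, then digits, so that assembly factors (Ndufaf) and rows ending in -ps were left out. RNA sequencing of whole hearts compared 5 A-PDK1KO mice, which lack 3-phosphoinositide-dependent kinase 1 (PDK1, gene Pdpk1) in adipocytes, with 5 control mice, which carry the PDK1 flox/flox alleles and no stated deletion. All 10 animals were 10 to 11 weeks old and in a randomly fed state, and the hearts were snap frozen. The sources used here do not give the promoter that drove the deletion, or the sex and strain of the mice. The deletion is in adipocytes and not in heart muscle, and Pdpk1 in the heart stood at 2.73, 4.04, 3.64, 3.70 and 3.17 FPKM in A-PDK1KO hearts and at 3.77, 3.77, 3.54, 3.54 and 3.14 FPKM in control hearts, so its level there checks no label. FPKM are fragments scaled to exon length and library size, so a comparison between genes also depends on the annotated exon length of each.

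Complex I (NADH:ubiquinone oxidoreductase) takes electrons from NADH, passes them along a chain of iron-sulphur clusters to ubiquinone, and pumps protons across the inner mitochondrial membrane. Its matrix arm holds the N module, where NADH is oxidized, and the Q module, where ubiquinone is reduced. Its membrane arm is assembled from parts named after the mitochondrially encoded subunits at their centre (ND1, ND2, ND4 and ND5). Heart muscle is rich in mitochondria and depends on this chain for most of its ATP.

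Libraries held 9249254 to 11384421 counted reads, and mitochondrially encoded transcripts took 34.3% to 41.5% of them in A-PDK1KO hearts and 32.7% to 40.4% in control hearts. Hearts differed in atrial tissue: the atrial light chain gene Myl7 had 35.0 FPKM in A-PDK1KO replicate 3, 47.6 FPKM in A-PDK1KO replicate 5, 85.9 FPKM in control replicate 2 and 71.4 FPKM in control replicate 5, and less than 1 FPKM elsewhere. The number of genes reaching 1 FPKM was 10723 in A-PDK1KO replicate 2 and 9671 to 10214 elsewhere. All 8 ventricular muscle markers were present. In whole tissue, fewer cells of a type and less RNA per cell cannot be told apart.

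Most nuclear complex I genes were slightly lower in A-PDK1KO hearts, and 1 of them passed the test. The log2 fold change, A-PDK1KO minus control, was below 0 for 32 of the 36 subunits (88.9%), while 45.4% of all 9987 tested genes were below 0. This count fell to 25 subunits with mitochondrial and haemoglobin genes taken out of the library total and to 23 with quantile normalization. Over all 26 alternatives it ran from 23 to 33. The median over the subunits was -0.10 on the log2 scale, against 0.02 over all tested genes. Across all tested genes mean FPKM and log2 fold change had a Spearman correlation of -0.21, and the subunits are of high level. The part of level in these contrasts was not tested. The 8 ventricular muscle markers had 7 below 0, 3 lower and 1 higher at an unadjusted p under 0.05, and a median log2 fold change of -0.10, which was -0.04 with mitochondrial and haemoglobin genes taken out and -0.03 with quantile normalization. Their summed level was 13505 to 15409 FPKM in A-PDK1KO hearts and 14361 to 17032 FPKM in control hearts, and their part in the subunits' values was not tested. Ndufs6, an accessory subunit of the N module, was the only one called by limma at an adjusted p under 0.05 (1 of 36, 2.78%), a threshold that 0.871% of all tested genes passed as lower and 1.21% as higher. No subunit was called higher by limma, or by limma voom on recovered reads, which called Ndufs6 lower (1 of 36, against 0.918% of the genes it tested). Sample weights in limma called Ndufs6, Ndufb8 and Ndufv2 lower (3 of 36, against 1.93% of all tested genes). At an unadjusted p under 0.05, 12 subunits (33.3%) were lower and 0 were higher in the limma fit, where 7.03% of all tested genes were lower and 8.53% higher. Every A-PDK1KO heart lay below every control heart for 5 subunits (13.9%; 2.23% of all tested genes), and above for 0 (2.72% of all tested genes). The 5 were Ndufs6, Ndufb5, Ndufb8, Ndufa12 and Ndufa7. The differences were small. Ndufa12 apart, the largest was the one of Ndufs6, whose ratio of means was 0.85, A-PDK1KO over control.

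**Figure D1:**
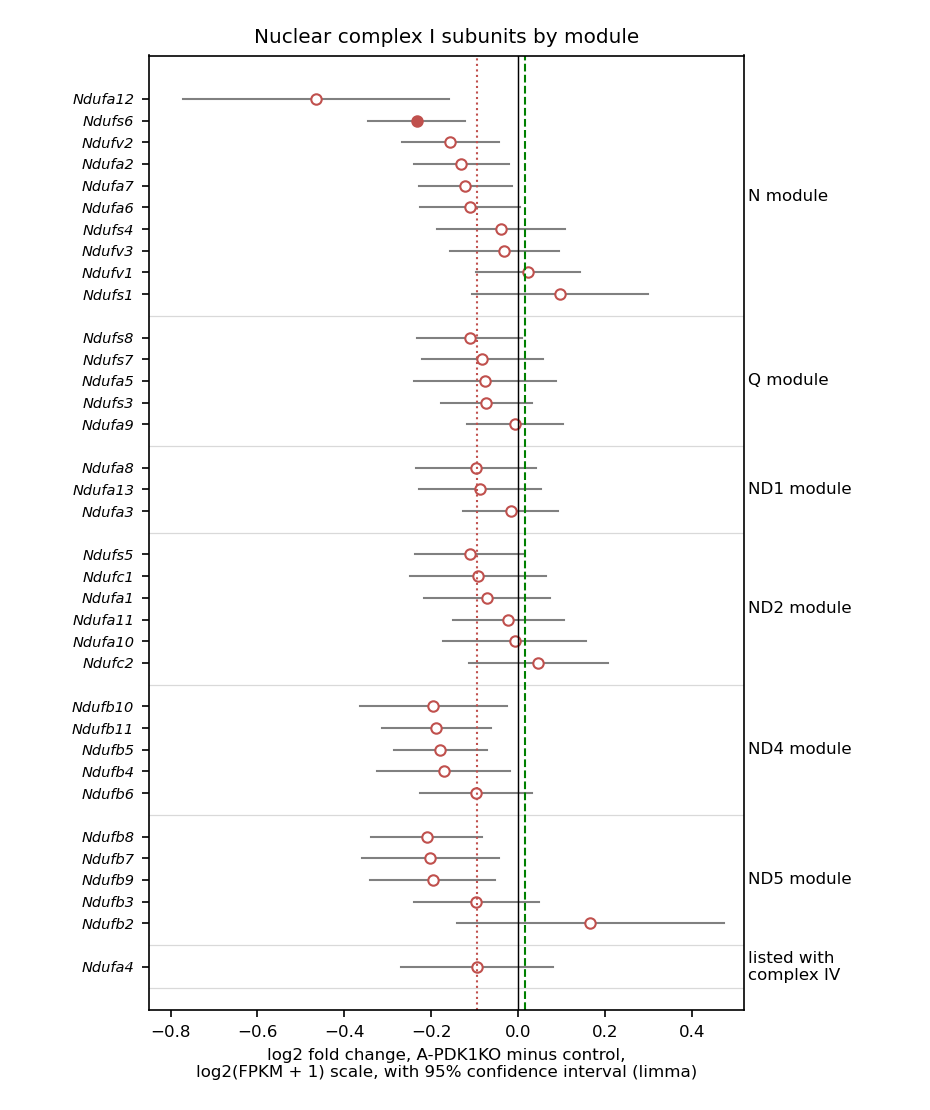
Log2 fold change (A-PDK1KO minus control, log2(FPKM + 1) scale) of the nuclear subunits reported singly, by module, with 95% confidence intervals from limma; the filled point is Ndufs6 (adjusted p = 0.0384), the dotted red line the median of the subunits (-0.10) and the dashed green line the median of all tested genes (0.02). Points lie left of 0 except those of Ndufb2, Ndufs1, Ndufc2 and Ndufv1.

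The subunits are abundant transcripts. Their median level over the 10 hearts was 209 FPKM, against 4.41 FPKM for all tested genes. Ndufa4 (513 FPKM), Ndufa1 (464 FPKM), Ndufb11 (423 FPKM) and Ndufa2 (416 FPKM) led the order, and these neighbours overlapped in their ranges over hearts. At the other end stood Ndufv3 (70.3 FPKM), Ndufs1 (61.0 FPKM) and, far below, Ndufb2 (4.05 FPKM). Ndufb2 shares exon bases with Gm42420 on its own strand and with Braf and Gm16272 on the other, so its level is uncertain. It was covered by 128 to 287 reads per heart, and each other subunit by 1175 to 11242. The order by FPKM also depends on annotated exon length, which ran from 419 to 8086 bases over the subunits. Subunits also varied little between hearts of a group: the median coefficient of variation was 4.30% in A-PDK1KO and 6.70% in control hearts, against 13.6% and 13.3% for all tested genes. Those genes are of far lower level (median 4.41 FPKM), and the spread of genes of like level was not compared.

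In the N module, which carries the NADH-binding flavoprotein Ndufv1 and most of the iron-sulphur clusters, 8 of 10 subunits were below 0 and the median log2 fold change was -0.12, with 6 below 0 and a median of -0.04 under quantile normalization. Ndufs6, a zinc-binding subunit needed for the stable joining of the N module, lies on chromosome 13 (mm10, 73319838 to 73328542, minus strand). Its level was 332.45, 332.96, 317, 330.9 and 342 FPKM in A-PDK1KO hearts and 413, 405, 367, 388 and 375 FPKM in control hearts. The groups did not overlap, and the highest A-PDK1KO heart, replicate 5, was below the lowest control heart, replicate 3. The means were 331.2 ± 8.86 FPKM in A-PDK1KO and 389.8 ± 19.3 FPKM in control hearts (SD, n = 5 each), with -0.23 ± 0.05 (SE) as the log2 fold change (limma, adjusted p = 0.0384). The call was lost in each of the 10 fits that left out 1 heart (adjusted p from 0.0567 to 0.103) and under 10 of 16 other settings, with adjusted p from 0.0217 to 0.492 over the 16, while the log2 fold change stayed between -0.26 and -0.14. Ndufs6 shares exon bases with Mrpl36 on the opposite strand, and the sources used here do not give the strand setting of the counting. It also has a near-identical processed copy, Ndufs6b (95.8% over 287 bases), which took 1.41% to 2.30% of the reads of both. The sum of gene and copy gave a ratio of 0.849, A-PDK1KO over control, and the gene alone gave 0.85.

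**Figure D2:**
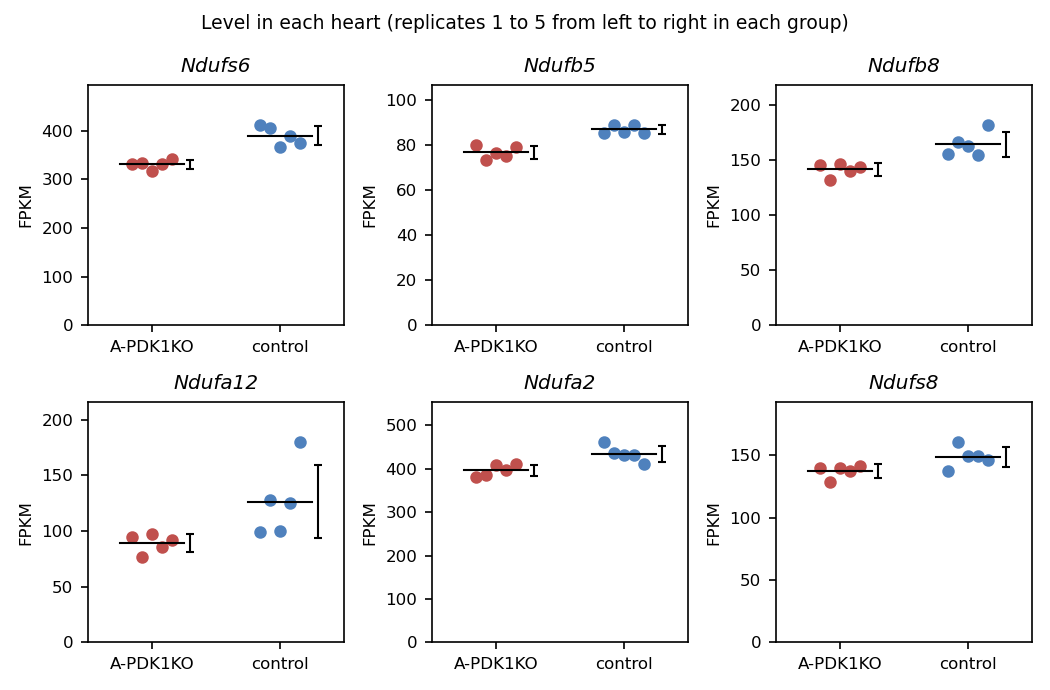
Level in FPKM of 6 subunits in each heart (points, replicates 1 to 5 from left to right), with group mean (line) and SD (bar to the right), A-PDK1KO in red and control in blue. The groups do not overlap for Ndufs6, Ndufb5, Ndufb8 and Ndufa12. They overlap slightly for Ndufa2 (highest A-PDK1KO heart 412, lowest control heart 410.1). They also overlap for Ndufs8, where control replicate 1 (137) lies inside the A-PDK1KO range (128 to 142).

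Ndufa2, the N module subunit of highest level and one with a thioredoxin-like fold, stood at 382, 385, 408, 397 and 412 FPKM in A-PDK1KO hearts and at 462, 436, 431, 433 and 410.1 FPKM in control hearts. Only the lowest control heart, replicate 5, reached into the A-PDK1KO range. The log2 fold change was -0.13 ± 0.05 (limma, adjusted p = 0.230), so the gene did not pass the test. Ndufa2 shares exon bases with Tmco6 on the opposite strand. Ndufa7, an accessory subunit of the matrix arm, had groups that did not overlap, at 99.1 ± 3.06 FPKM in A-PDK1KO and 108 ± 3.39 FPKM in control hearts, and an adjusted p of 0.258 in limma. Of the catalytic iron-sulphur subunits here, Ndufv2 had a log2 fold change of -0.16, while Ndufs1 and Ndufv1 stood on the other side of 0 at 0.10 and 0.02. Ndufa6, Ndufs4 and Ndufv3 had -0.11, -0.04 and -0.03.

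Ndufa12, which joins complex I late in assembly in place of the factor Ndufaf2, had the largest log2 fold change of the 36. It lies on chromosome 10 (mm10, 94198720 to 94221443). Its level was 94.4, 76.8, 97.8, 85.7 and 92.2 FPKM in A-PDK1KO hearts and 98.7, 128, 99.9, 125 and 180.1 FPKM in control hearts. The groups did not overlap, yet control replicates 1 and 3 lay just above the highest A-PDK1KO heart and control replicate 5 stood far above the rest. The log2 fold change was -0.46 ± 0.14 (limma, adjusted p = 0.125), and -0.33 without control replicate 5.

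The value of Ndufa12 depends on reads that a copy elsewhere can claim. Ndufa12-ps, a processed copy on chromosome 5, matches 402 bases of the transcript at 99.5%, with 2 differences. The stretches around both are shown because, inside the aligned stretch, they are the positions at which a read can tell gene from copy. The base that differs is in capitals. Positions are counted from 1 at the start of the aligned stretch, and the substitutions are A99G and T378C, gene base first.
Ndufa12, position 99: gaagacaaatatggAaataaatactacgaa
Ndufa12-ps, position 99: gaagacaaatatggGaataaatactacgaa
Ndufa12, position 378: attcatgaatgggtTccaccttcgacacct
Ndufa12-ps, position 378: attcatgaatgggtCccaccttcgacacct
In reads per 1000000 counted reads (RPM), Ndufa12 had 148, 121, 153, 134 and 145 in A-PDK1KO hearts and 155, 201, 157, 196 and 283 in control hearts. The copy had 93.1, 79.6, 91.1, 93.7 and 94.3 in A-PDK1KO hearts and 105, 107, 94.2, 86.6 and 60.3 in control hearts. Control replicate 5, highest for the gene, was the lowest for the copy. Gene and copy together averaged 231 ± 18.1 RPM in A-PDK1KO and 289 ± 37.4 RPM in control hearts (SD, n = 5 each). That is a ratio of 0.798, against 0.707 for the gene alone, and the summed values did not overlap either, with at most 244 in A-PDK1KO and at least 251 in control hearts. Reads of the aligned stretch that cover neither position match gene and copy alike, so the sum need not hold all reads of both.

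**Figure D3:**
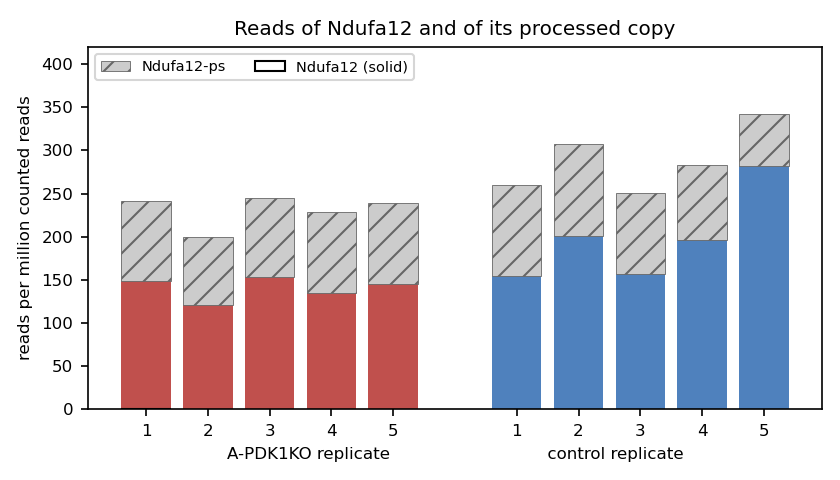
RPM (reads per 1000000 counted reads) of Ndufa12 (solid bars) and its processed copy Ndufa12-ps (hatched, stacked on top) in each heart, A-PDK1KO in red and control in blue. The summed bars of the 5 A-PDK1KO hearts end at 200.2 to 244 and those of the 5 control hearts at 251 to 343, and the copy takes 17.6% to 41.1% of a bar.

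In the Q module, where the last iron-sulphur cluster hands electrons to ubiquinone, the 6 subunits had a median log2 fold change of -0.08, and 0 had an unadjusted p under 0.05 in limma. This median came close to 0 under 2 scalings, at -0.01 both with quantile normalization and with mitochondrial and haemoglobin genes taken out of the total. Ndufs8, which holds a pair of iron-sulphur clusters and had the smallest p of the module, stood at 139, 128, 140.2, 138 and 142 FPKM in A-PDK1KO hearts and at 137, 161, 149.6, 149 and 146 FPKM in control hearts. One control heart, replicate 1, fell inside the A-PDK1KO range, and the log2 fold change was -0.11 ± 0.06 (limma, adjusted p = 0.366). Ndufs3 and Ndufs7, also catalytic, had -0.07 and -0.08, and the accessory Ndufa5 and Ndufa9 had -0.08 and -0.01. Ndufs3 has a near-identical copy, Gm12251 (98.6% over 792 bases), at a mean of 21.7 FPKM. It also shares exon bases with Kbtbd4 on the opposite strand.

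Next to the matrix arm, the ND1 part holds Ndufa3, Ndufa8 and Ndufa13, with log2 fold changes of -0.02, -0.10 and -0.09. Ndufa8, an intermembrane-space subunit with twin cysteine motifs, had 339, 306, 333.7, 320.4 and 326.2 FPKM in A-PDK1KO hearts and 309, 334.9, 349, 371 and 379 FPKM in control hearts. The lowest control heart, replicate 1, lay near the lowest A-PDK1KO heart, and the test was not passed (limma, adjusted p = 0.509).

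The ND2 part had 5 of 6 subunits below 0 and a median of -0.05, which turned to 0.02 with mitochondrial and haemoglobin genes left out of the total and to 0.03 with quantile normalization. Ndufa1, a small single-pass membrane subunit encoded on the X chromosome, had 462, 438, 470.3, 420.1 and 468 FPKM in A-PDK1KO hearts and 546, 464, 459, 480.2 and 429 FPKM in control hearts. The groups overlapped (log2 fold change -0.07 ± 0.07; limma, adjusted p = 0.674). Ndufs5, another subunit of the intermembrane space, had 240.4, 231, 238, 243 and 247 FPKM in A-PDK1KO hearts and 261, 281, 249.98, 234 and 273 FPKM in control hearts. All control hearts but replicate 4 lay above the A-PDK1KO hearts (log2 fold change -0.11 ± 0.06; limma, adjusted p = 0.381). Ndufc1, Ndufa11 and Ndufa10 had -0.09, -0.02 and -0.01, and Ndufc2 had 0.05.

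The far end of the membrane arm, built around ND4 and ND5, held 7 of the 12 subunits with an unadjusted p under 0.05. The N module held the other 5, and no difference between modules was tested. In the ND4 part all 5 subunits were below 0, with a median of -0.18, and all 5 stayed so under each other scaling. Ndufb5 (chromosome 3, 32736990 to 32751566), a single-pass membrane subunit, had 79.9, 73.2, 76.3, 75.1 and 79.0 FPKM in A-PDK1KO hearts and 85.2, 89.1, 85.9, 89.1 and 85.3 FPKM in control hearts. The groups were tight and separate, with means of 76.7 ± 2.77 FPKM in A-PDK1KO and 86.9 ± 2.00 FPKM in control hearts. The log2 fold change of -0.18 ± 0.05 did not reach the threshold (limma, adjusted p = 0.0939). Ndufb5 shares exon bases with Mrpl47 on the opposite strand. Ndufb11, an X-linked membrane subunit, stood at 423, 382, 379, 394 and 399 FPKM in A-PDK1KO hearts and at 499, 457, 432, 423 and 446 FPKM in control hearts. The groups overlapped slightly, with A-PDK1KO replicate 1 at 423.19 FPKM and control replicate 4 at 422.58 FPKM. The log2 fold change was -0.19 ± 0.06 (limma, adjusted p = 0.128). Ndufb11 shares exon bases with Rbm10 on the opposite strand and has a near-identical copy, Gm6444, at a mean of 0.825 FPKM. Ndufb10, Ndufb4 and Ndufb6 had -0.20, -0.17 and -0.10.

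In the ND5 part 4 of 5 subunits were below 0, also under each other scaling, with a median of -0.20. Ndufb8, an accessory subunit often probed on blots as a sign of assembled complex I (chromosome 19, 44548572 to 44555440, minus strand), had 146, 133, 147, 141 and 144 FPKM in A-PDK1KO hearts and 156, 167, 163, 155 and 183 FPKM in control hearts. All A-PDK1KO hearts were below all control hearts, with a log2 fold change of -0.21 ± 0.06 (limma, adjusted p = 0.1004). Its exons overlap Gm20538 on the same strand. Ndufb9, a LYR-motif subunit, had 295, 248.8, 277, 252 and 297 FPKM in A-PDK1KO hearts and 298, 325.8, 319, 295 and 329.7 FPKM in control hearts. A-PDK1KO replicate 5 lay just above control replicate 4, and the other 4 A-PDK1KO hearts were below all control hearts (log2 fold change -0.20 ± 0.07; limma, adjusted p = 0.168). Ndufb9 shares exon bases with Gm49356 on the same strand. Ndufb7 and Ndufb3 had -0.20 and -0.10. Ndufb2 had the largest positive value of the 36, with 3.85, 4.61, 4.62, 3.73 and 4.68 FPKM in A-PDK1KO hearts and 4.36, 4.05, 4.17, 4.28 and 2.12 FPKM in control hearts. The ranges overlapped, and control replicate 5 alone was low. The log2 fold change was 0.17 ± 0.14 (limma, adjusted p = 0.634), and 0.02 without control replicate 5. Ndufa4, whose name places it in complex I but whose protein is now counted with cytochrome c oxidase, had 495 ± 28.7 FPKM in A-PDK1KO and 531 ± 67.6 FPKM in control hearts.

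Counted heart by heart, the median deviation of the 36 from their mean over all hearts was -0.04, -0.05, -0.05, -0.07 and -0.02 on the log2 scale in A-PDK1KO hearts and 0.04, 0.11, 0.05, 0.05 and 0.02 in control hearts. The groups did not overlap. Their summed level was 7731 to 7878 FPKM in A-PDK1KO hearts and 8243 to 8612 FPKM in control hearts. Taken relative to the median of all tested genes in the same heart, the values were 0.03, -0.19, -0.02, -0.11 and -0.01 in A-PDK1KO hearts and 0.08, 0.12, 0.08, -0.05 and 0.08 in control hearts. Now the groups overlapped: control replicate 4 fell below A-PDK1KO replicates 1, 3 and 5. In A-PDK1KO replicate 2 and control replicate 4 the median of all genes stood at 0.14 and 0.10, higher than in the other 8 hearts. As a share of reads outside the mitochondrial genome, the subunits took 1.80% to 2.00% in A-PDK1KO hearts and 1.86% to 2.09% in control hearts, which also overlap. The median deviation of the ND4 part did not overlap (at most -0.019 in A-PDK1KO, at least 0.0022 in control hearts). That of the ND5 part did (up to 0.0229 in A-PDK1KO, from 0.0191 in control hearts). Relative to all tested genes both overlapped, with ND4 at -0.29 to 0.06 in A-PDK1KO and -0.10 to 0.21 in control hearts. ND5 was at -0.34 to 0.04 and -0.08 to 0.23.

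**Figure D4:**
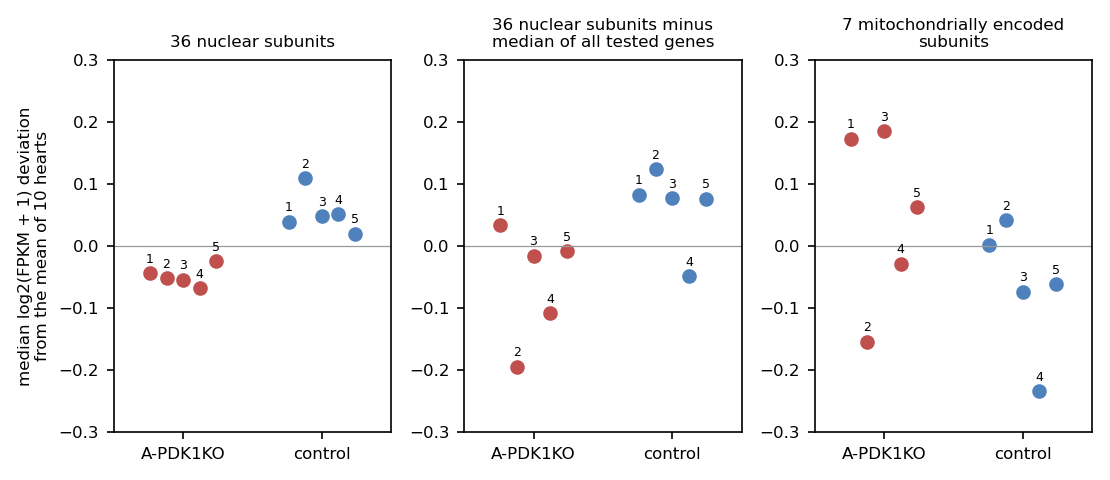
Median log2(FPKM + 1) deviation from the mean of 10 hearts, per heart (numbers are replicates), for the 36 nuclear subunits, for the same minus the median of all tested genes, and for the 7 mitochondrially encoded subunits, A-PDK1KO in red and control in blue. The groups are separate in the left panel (at most -0.02 in A-PDK1KO, at least 0.02 in control hearts) and overlap in the other panels.

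The 6 atrial markers were all below 0, with a median log2 fold change of -0.28, and their summed level was 202 to 287 FPKM in A-PDK1KO hearts and 229.8 to 600 FPKM in control hearts. This sum did not follow Myl7 in every heart. Control replicate 1 had 0 FPKM of Myl7 and a sum of 501 FPKM, and A-PDK1KO replicate 3 had 35.0 FPKM and a sum of 202 FPKM. In control replicates 2 and 5, which had the highest Myl7, the sums were 459 and 600 FPKM. With Myl7 as a covariate the median of the subunits was -0.09, and among the 6 hearts with Myl7 under 10 FPKM it was -0.10. Summed erythroid markers were 68.6 to 228 FPKM in A-PDK1KO hearts and 27.9 to 1391 FPKM in control hearts. Of 7 white adipocyte markers only Cfd and Fabp4 have a row, with sums of 78.5 to 139 FPKM in A-PDK1KO hearts and 76.5 to 123 FPKM in control hearts. Only 1 of this pair averaged at least 1 FPKM, so the sum is nearly all from 1 gene and does not measure adipocyte RNA by itself. The part of erythroid and adipocyte RNA in the subunits' values was not tested.

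The median of the subunits stayed below 0 and below that of all tested genes under each of 26 alternatives, between -0.12 and -0.02. It was closest to 0 with quantile normalization (-0.02), with mitochondrial and haemoglobin genes left out of the library total (-0.03, where all tested genes had 0.07) and with a trend on exon length and GC content removed (-0.05). Exon length bears on the last: the subunits had a median of 1532 exon bases, against 3900 for all tested genes, and across all tested genes length and log2 fold change had a Spearman correlation of 0.18. Across the 36 subunits it was 0.20, and both are descriptions over genes that share libraries. Mean FPKM and log2 fold change had a correlation of -0.21 across all tested genes and -0.11 across the 36, also as a description.

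**Figure D5:**
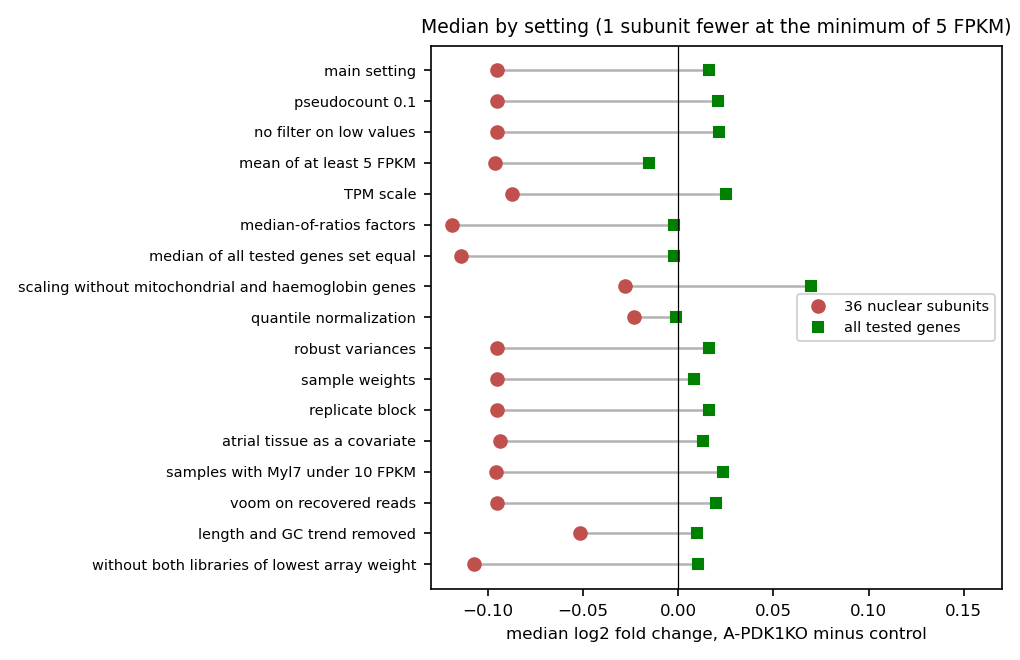
Median log2 fold change (A-PDK1KO minus control) of the 36 nuclear subunits (red circles) and of all tested genes (green squares) under the main setting and each other setting, fits without 1 heart left aside. The circle lies left of the square in every row, and the gap is smallest with quantile normalization, where the subunits stand at -0.02.

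The 7 subunits made inside the mitochondrion were mostly on the other side of 0 from the nuclear ones, and the difference was not tested. These are the proton-pumping and ubiquinone-binding cores of the membrane arm. None was called by limma, and 1 of 7 was below 0, with a median log2 fold change of 0.06. At an unadjusted p under 0.05 in limma, 0 were lower and 2 higher, where 7.03% of all tested genes were lower and 8.53% higher. The pair with an unadjusted p under 0.05 was mt-Nd4 (21895 ± 2682 FPKM in A-PDK1KO and 18825 ± 930.0 FPKM in control hearts) and mt-Nd5 (17532 ± 1624 FPKM in A-PDK1KO and 15405 ± 1256 FPKM in control hearts), with adjusted p of 0.251 and 0.288 in limma. The other values were -0.0027 for mt-Nd1, 0.15 for mt-Nd2, 0.03 for mt-Nd3, 0.04 for mt-Nd4l and 0.06 for mt-Nd6. The summed level was 103050 to 128220 FPKM in A-PDK1KO hearts and 97939 to 115030 FPKM in control hearts, so the groups overlapped, and mitochondrial reads count in the total by which every FPKM is scaled.

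Complex I assembly factors, which build the arms and are not kept in the finished enzyme, had 13 of 19 tested members below 0 with a median of -0.03, which turned to 0.03 with mitochondrial and haemoglobin genes taken out of the total. None was called by limma or by voom. At an unadjusted p under 0.05 in limma, 5 were lower and 0 higher, where 7.03% of all tested genes were lower and 8.53% higher. These 5, named after their values were seen, were Ndufaf2, the factor that Ndufa12 replaces (-0.31), Timmdc1 (-0.24) and Tmem126a (-0.24), which act on the membrane arm, and Ndufaf3 (-0.19) and Ndufaf8 (-0.16). Among the other nuclear-encoded complexes of the chain, none of the tested genes was called in the limma fit. All 9 genes of complex III, all 12 of complex IV and all 15 of ATP synthase were below 0, with medians of -0.10, -0.11 and -0.11. At an unadjusted p under 0.05 in limma, 4, 3 and 5 of them were lower, against the same 7.03% of all tested genes. With mitochondrial and haemoglobin genes taken out of the total, 5, 10 and 9 of them were below 0, and with quantile normalization 5, 10 and 12, while the 3 medians stayed below 0. Limma voom called 1 ATP synthase gene lower, Atp5g1 (a gene of the c ring), and 0 in the other complexes. Complex II, which feeds electrons from succinate, had 1 of 4 below 0 and a median of 0.01, which turned to -0.01 both with median-of-ratios factors and with the median of all genes set equal. The size of the complex I median was close to that of complexes III, IV and ATP synthase in the same hearts, and no difference between the complexes was tested. Of related rows outside the name rule, the acyl carrier Ndufab1 had a log2 fold change of 0.02, Ndufb1-ps -0.04 and Ndufa4l2 0.05. The near-identical copies with an Nduf name had -0.31 for Ndufs6b, -0.30 for Ndufb4c, -0.08 for Ndufs5-ps and 0.02 for Ndufa12-ps, and none of these 7 rows was called by limma, with adjusted p from 0.327 to 0.963.

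Promoters of the subunits were read from the RefSeq table (GRCm38.p6), which gives 250 bases before and 50 after each start for 32 of the 36 genes. A total of 5 motifs of factors known for mitochondrial genes were searched on both strands. The NRF1 motif GCATGCGC was found in 3 subunits (9.38%) and 2.71% of all 32851 promoters, the ETS motif CCGGAAG in 4 (12.5%) and 8.86%, the ERR motif AAGGTCA in 3 (9.38%) and 4.72%, and the SP1 motif GGGCGG in 14 (43.8%) and 35.7%. The YY1 motif AAGATGGC was found in 7 (21.9%) and 2.75% of all promoters. In these 7 its ATG is the annotated start codon, so the letters also belong to the coding sequence. Of the 5 subunits whose groups did not overlap, Ndufs6 and Ndufb8 have it, and Ndufb5, Ndufa12 and Ndufa7 do not. The 7 stretches are shown for the shared place of the motif at the start codon, 30 bases each with the motif in capitals, on the strand of the gene.
Ndufs6, chr13:73328433-73328462, minus: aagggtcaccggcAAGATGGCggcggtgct
Ndufb8, chr19:44555393-44555422, minus: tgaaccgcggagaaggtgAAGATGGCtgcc
Ndufs4, chr13:114388045-114388074, minus: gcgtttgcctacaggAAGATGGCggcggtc
Ndufs7, chr10:80249462-80249491, plus: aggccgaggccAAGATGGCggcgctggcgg
Ndufc1, chr3:51408915-51408944, minus: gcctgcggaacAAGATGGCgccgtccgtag
Ndufa3, chr7:3617384-3617413, plus: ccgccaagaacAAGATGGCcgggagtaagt
Ndufa9, chr6:126849097-126849126, minus: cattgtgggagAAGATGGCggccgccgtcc
The motif began 23 to 39 bases after the start site. The 7 genes spanned log2 fold changes from -0.23 for Ndufs6 to -0.01 for Ndufa9, and they are spread over the N, Q, ND1, ND2 and ND5 parts. A match is a run of letters and does not show binding.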

How the data were processed

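RNA from whole hearts of 5 A-PDK1KO and 5 control mice was analysed, grouped by the genotype label. The deposited table gives FPKM made by the authors, with Trimmomatic 0.38, HISAT2 2.1.0, featureCounts 1.6.3 and build mm10 named in the submitters' processing notes, and FastQC 0.11.7 in the labels' protocols. The sources used here do not give the annotation, the strand setting or any batch. No gene of the table has a highest value below 1.0 FPKM, and genes without a row are not analysed here.

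FPKM were converted to log2(FPKM + 1). Genes averaging at least 1 FPKM over all hearts were tested, A-PDK1KO minus control, with limma 3.58.1 (trended empirical Bayes, two-sided) in R 4.3.3 on all 9987 such genes, and p-values were adjusted by Benjamini-Hochberg over all of them. All 36 subunits passed the filter. Fold changes are on the log2(FPKM + 1) scale, which understates those of low genes. Nothing in the labels says more of the replicates than a tissue number, so p-values measure the spread between these samples.

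Reads were recovered from FPKM with GENCODE mouse release 21 exon lengths and came out whole, within 0.05 of a read, for 98.2% of genes and 98.45% of values; limma voom on them called 139 genes higher and 90 lower of 9801. Copies were searched with BLAST+ 2.17.0 (at least 95% identity over 200 bases), and 7 subunits have one. Exons overlap another gene for 15 subunits. Length and GC trends used mgcv 1.9.3, and tables were made in Python 3.11.15. The limma step was tested on simulated data. Its planted changes were larger than that of any subunit here, so it does not show how changes of this size fare.

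Per-heart values are given for called subunits, for the subunit of highest mean FPKM and that of lowest p in each module, and for the largest change each way. Other subunits are given by value or count, and 1 subunit is counted in the totals but is not reported here by itself. The members, lists and tests were chosen with earlier results of these data known, and no p over the list is given. Alternatives were another pseudocount (0.1), no filter or 5 FPKM, 5 other scalings, robust variances, sample weights, a replicate block, Myl7 as a covariate, low-Myl7 hearts alone, voom, a length and GC correction, an adjusted p under 0.1 and each heart left out. Removal of A-PDK1KO replicate 2 with control replicate 4 was added after seeing the data.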

Additional observations from a re-analysis of the deposited data

Results flagged for a closer look

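Of 78 groups of 5 hearts checked, 4 held a heart far from the other 4 of its group, where chance flags about 1 in 20 groups. Ndufb10 was at 299 FPKM in control replicate 1, against 359 to 384 FPKM in the other control hearts. Ndufb2 was at 2.12 FPKM in control replicate 5, against 4.05 to 4.36 FPKM in the others, and its exons overlap those of 3 other genes. Ndufc2 was at 201 FPKM in control replicate 1, against 173 to 178 FPKM in the others. Relative to the median of all tested genes, the 36 subunits stood at -0.0484 on the log2 scale in control replicate 4, against 0.0766 to 0.124 in the other control hearts, and the median of all genes in that heart was 0.10.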

How the results depend on the processing

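The count of subunits called lower (1 in the main fit) was 0 on the TPM scale, with median-of-ratios factors, with the median of all genes set equal, with mitochondrial and haemoglobin genes left out of the total, with quantile normalization, with the replicate block, with Myl7 as a covariate, in the 6 hearts with Myl7 under 10 FPKM, with the length and GC trend removed and without both A-PDK1KO replicate 2 and control replicate 4. It was 3 with sample weights (Ndufs6, Ndufb8 and Ndufv2), 2 at an adjusted p under 0.1, and 0 to 0 over the fits without 1 heart. Genes called higher over the whole table (121) were 41 on the TPM scale, 323 without mitochondrial and haemoglobin genes (67 lower), 219 with sample weights, 1 in the hearts of low Myl7, 76 without both libraries, 207 at an adjusted p under 0.1 and 29 to 94 without 1 heart. Genes called lower (87) were 21 on the TPM scale, 193 with sample weights, 2 in the hearts of low Myl7, 162 at an adjusted p under 0.1 and 24 to 88 without 1 heart. Median-of-ratios factors called 110 higher and 102 lower. With mitochondrial and haemoglobin genes left out, the median log2 fold change (-0.0952 in the main fit) was -0.0282 for the 36 subunits, -0.0495 for N, -0.0085 for Q, -0.0212 for ND1, 0.0200 for ND2 and -0.1123 for ND4. With quantile normalization it was -0.0232 for the 36, -0.0431 for N, -0.0086 for Q, -0.0071 for ND1, 0.0309 for ND2 and -0.1136 for ND4. With the length and GC trend removed it was -0.0515 for the 36, -0.0656 for N and -0.0036 for ND2. Without 1 heart it was -0.1119 to -0.0781 for the 36. Among subunits given heart by heart the sign turned for Ndufa1 with quantile normalization (0.0352) and for Ndufb2 in the hearts of low Myl7 (-0.0617). Of the others given singly it turned under at least 1 alternative for Ndufa3, Ndufa5, Ndufa9, Ndufa10, Ndufa11, Ndufb3, Ndufc2, Ndufs4, Ndufv1 and Ndufv3, which makes 12 in all, most of them with quantile normalization (8). The cause was not tested. Replicate numbers are shared between the groups, but same-numbered hearts deviated together with correlations of only -0.116 to 0.0851, and 0 of 5 pairs matched best. The values thus show no sign that the numbers pair the hearts, and low correlations cannot exclude a pairing. The replicate block gave 92 genes higher and 61 lower, and Ndufs6 an adjusted p of 0.0741. Each subunit but Ndufb2 had at least 1175 reads in every heart.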

Other observations

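Regulators of mitochondrial gene transcription were described beside the subunits. None of 9 tested was called by limma, 0 were lower or higher at an unadjusted p under 0.05, 4 were below 0 and the median log2 fold change was 0.0017. Ppargc1a, the coactivator of mitochondrial biogenesis, had 4.56 ± 1.22 FPKM in A-PDK1KO and 4.50 ± 0.801 FPKM in control hearts (SD, n = 5 each). Yy1, the factor named for the motif at the start codon of 7 subunits, had 7.73 ± 0.423 FPKM in A-PDK1KO and 7.57 ± 0.552 FPKM in control hearts. Esrra, an orphan receptor of energy metabolism genes, had 22.0 ± 2.64 FPKM in A-PDK1KO and 24.6 ± 2.26 FPKM in control hearts, and its relative Esrrg had 6.36 ± 0.860 FPKM in A-PDK1KO and 5.46 ± 0.341 FPKM in control hearts. Ppara, another of the 9, had 5.74 ± 0.590 FPKM in A-PDK1KO and 6.69 ± 0.854 FPKM in control hearts. None of these genes passed the test.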
